A study of Mus musculus with 19 samples.

Results

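The mitochondrial genome of the mouse encodes 37 genes, and their RNA was followed here across mouse embryonic stem cells (mESC) and epiblast-like cells (EpiLC). The genes were taken as every gene whose symbol starts with mt- in GENCODE M21 (GRCm38), and all 37 were in the table of 54119 genes. They were 13 protein-coding genes, 2 rRNA genes and 22 tRNA genes. RNA was sequenced from 19 libraries in 6 groups. Wild-type XX cells were of the LF2 line, with 3 mESC and 3 EpiLC libraries. Wild-type XY cells were of the E14 line, with 3 mESC and 3 EpiLC libraries. Tet3-/- cells were XX cells of the LF2 line, with 4 mESC libraries from mutants #1 to #4 and 3 EpiLC libraries from mutants #1, #3 and #4. All mESC were cultured in N2B27 with LIF and inhibitors of GSK3 and of MEK1/2, and all EpiLC came from such cells after 5 days with FGF5 and Activin A and no LIF. Sex chromosomes and line cannot be told apart, because each sex is represented by 1 line. Whether each mutant number is a separate clone, and whether replicates were separate cultures, is not given in the labels, so p-values measure only the spread between these samples. The question behind the study was whether cells without TET3, an enzyme that oxidises 5-methylcytosine, can still make that transition. Several comparisons share a group (XX mESC enter both the XX transition and the comparison with Tet3-/- mESC, for example), so they are not independent of each other.

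Mitochondrial DNA is a small circle carried in many copies per cell. It is transcribed from both strands into long polycistronic RNAs, which are cut at the tRNAs that lie between most of the other genes. All 13 proteins are subunits of the respiratory chain or of ATP synthase, and each of these complexes is completed by subunits encoded in the nucleus. Naive mouse embryonic stem cells use oxidative phosphorylation together with glycolysis, and primed epiblast-type cells are known to lean more on glycolysis.

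The values are TPM, in which each library sums to 1000000 over its transcripts and each transcript is scaled by its length, so levels can be compared between genes. TPM keeps no depth, so the depth of the libraries is unknown. The libraries were stranded total RNA from which both cytoplasmic and mitochondrial rRNA had been depleted, so mt-Rnr1 and mt-Rnr2 are measured as what depletion left. Between 34.4% and 58.1% of TPM per library was held by a handful of RNA polymerase III transcripts such as Rn7s1, and the sum of nuclear protein-coding genes ranged from 21.4% to 46.8% of TPM. Each comparison is therefore given on the TPM scale and on a nuclear protein-coding scale, in which TPM was rescaled so that nuclear protein-coding genes summed to 1000000 in each library. Tet3 itself did not separate Tet3-/- from XX cells in RNA. In mESC its level was 0.761 ± 0.269 TPM in XX (SD over 3 libraries) and 0.661 ± 0.174 in Tet3-/- cells (SD over 4), and the difference was not called (limma adjusted p = 0.885). In EpiLC it was 1.65 ± 0.386 TPM in XX and 1.04 ± 0.363 in Tet3-/- cells (SD over 3 each, limma adjusted p = 0.525). The groups are therefore named by their labels. Naive pluripotency markers (15 genes) summed to between 746 and 1643 TPM in the mESC libraries and to between 179 and 505 in the EpiLC libraries. Summed formative markers (9 genes) ranged from 20.6 to 57.0 TPM in mESC, from 57.5 to 69.8 in XX EpiLC and from 348 to 445 in XY EpiLC. Feeder fibroblast markers (8 genes) summed to at most 10.04 TPM in any library, with the highest sums in XY EpiLC (9.98 to 10.04) and 3.93 to 5.28 in XX EpiLC.

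Some libraries stood apart. Tet3-/- EpiLC mutant #3 had 208 TPM of summed formative markers against 58.7 and 59.6 in mutants #1 and #4, and 13.5 TPM of summed primitive endoderm markers against 0.943 and 0.922. Its naive markers summed to 457 TPM against 179 and 210.5. In XX mESC, nuclear protein-coding genes held 21.4%, 41.6% and 27.5% of TPM in replicates 1, 2 and 3. Results that turn on Tet3-/- EpiLC mutant #3 or on XX mESC replicate 2 are given with and without them.

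The nuclear genome carries a stretch of chromosome 1 that matches part of the mitochondrial DNA, and that match decides how some of these genes can be read. Gm28661, Gm28437, Gm10925, Gm10222, Gm28439, Gm28438 and Gm29216 are annotated as unprocessed pseudogenes on the minus strand of chromosome 1, within 24611535 to 24616197 (GRCm38). Gm28661 is identical to mt-Co2 over all of its 681 bases, Gm28437 to mt-Co3 over 783 bases, Gm10925 to mt-Atp6 over 678 bases, Gm10222 to mt-Nd4l over 294 bases and Gm28439 to mt-Nd4 over 876 bases. Gm28438 differs from mt-Nd3 at 1 of 345 aligned bases (T3C, counted from the first base of the transcripts, with the mt-Nd3 base first), and Gm29216 differs from mt-Co1 at 1 of 483. Transcript ends are shown because they hold the bases that the copies lack, and the mt-Nd3 starts because they hold the mismatch. Capitals mark those bases, and all sequences run 5′ to 3′ as in the GENCODE M21 transcripts (GRCm38). The mt-Co2 end is chrM:7637-7696 (+), the mt-Co3 end is chrM:9331-9390 (+), and the mt-Nd3 start is chrM:9459-9486 (+). The matching ends of Gm28661 and Gm28437 are chr1:24614885-24614941 (-) and chr1:24613189-24613247 (-), and the start of Gm28438 is chr1:24613092-24613119 (-).
mt-Co2: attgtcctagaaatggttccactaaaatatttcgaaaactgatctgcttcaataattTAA
Gm28661: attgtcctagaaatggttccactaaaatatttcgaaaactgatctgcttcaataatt
mt-Co3: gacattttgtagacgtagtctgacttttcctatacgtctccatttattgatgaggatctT
Gm28437: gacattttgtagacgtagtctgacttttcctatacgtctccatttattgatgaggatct
mt-Nd3: atTaacctgtacactgttatcttcatta
Gm28438: atCaacctgtacactgttatcttcatta

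In the deposited table these pairs shared their TPM in very different ways. The mt-Co2 row held 128 to 376 TPM, while its copy Gm28661 held 3316 to 9033, so mt-Co2 had only 2.80% to 5.20% of the sum of the pair. The mt-Co3 row held 73.7% to 97.8% of the sum with Gm28437. The mt-Atp6 row held 40.6% to 100% with Gm10925, and mt-Nd4l 24.3% to 100% with Gm10222. In mt-Nd3 the share was 82.0% to 98.7%, and in mt-Co1 it was 96.2% to 99.8%. Gm28439 was listed at 0 TPM in all 19 libraries, so mt-Nd4 held the whole sum there. Older nuclear copies on other chromosomes, at 90.7% to 97.6% identity, reached at most 1.91 TPM. Where a gene and its copy are identical the table cannot say which of them was transcribed. Called results for mt-Co2, mt-Atp6, mt-Co3 and mt-Nd4l in the fits with all libraries are therefore given beside those for the sum of the pair.

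**Figure D1:**
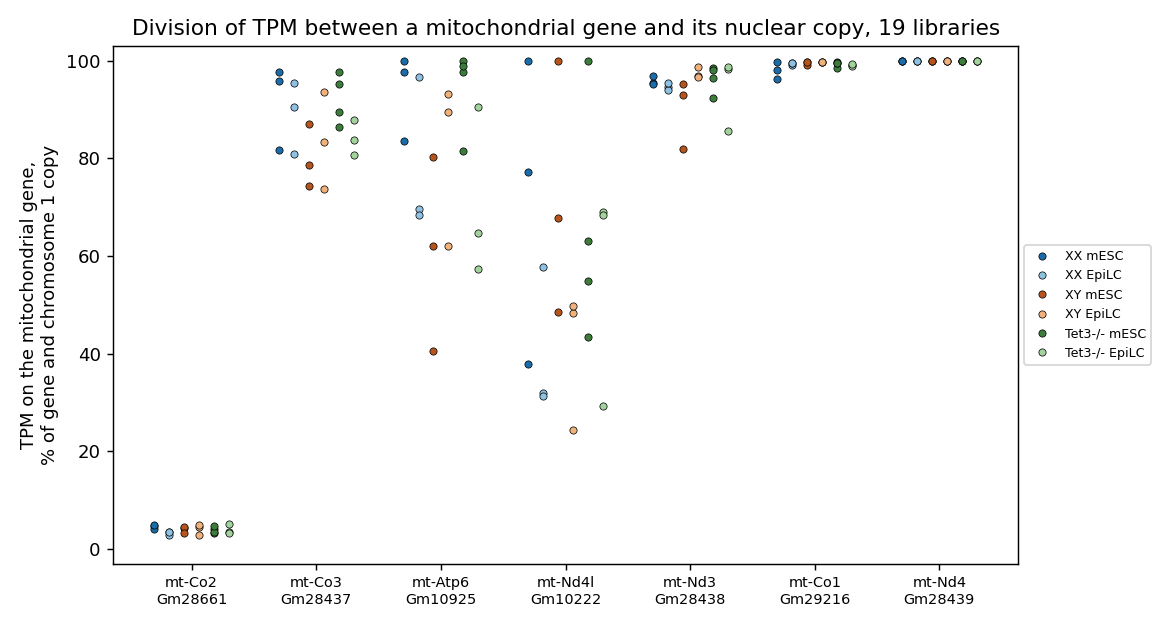
TPM listed on a mitochondrial gene as a percentage of the sum of that gene and its chromosome 1 copy (vertical axis) for 7 pairs (horizontal axis), with 1 point per library coloured by group. All mt-Co2 points lie between 2.80% and 5.20%, mt-Nd4 is at 100%, and mt-Atp6 and mt-Nd4l spread from 40.6% and 24.3% up to 100%.

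Levels differed widely among the 13 coding genes although they are cut from shared precursors. Complex IV subunits were the most abundant. With the copies added to their genes, mt-Co3 made up 24.0% ± 2.09 (SD, n = 19) of the coding TPM of a library, mt-Co1 22.1% ± 2.23 and mt-Co2 21.5% ± 0.895. These encode the 3 core subunits of cytochrome c oxidase. Without its copy mt-Co2 made up 1.15% ± 0.212 of the coding TPM. A middle group was formed by mt-Nd3 at 8.01% ± 1.15 with its copy, and by the ATP synthase subunits mt-Atp8 at 7.62% ± 0.849 and mt-Atp6 at 6.34% ± 0.596. The complex I subunit mt-Nd1 followed at 3.74% ± 0.751 and mt-Cytb, the single mitochondrially encoded subunit of complex III, at 2.91% ± 0.480. The other complex I genes were lowest. They were mt-Nd4 at 1.16% ± 0.524, mt-Nd4l at 0.838% ± 0.209, mt-Nd2 at 0.777% ± 0.245, mt-Nd5 at 0.576% ± 0.181 and mt-Nd6 at 0.524% ± 0.126. Within each of these bands, neighbours overlapped over the 19 libraries.

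**Figure D2:**
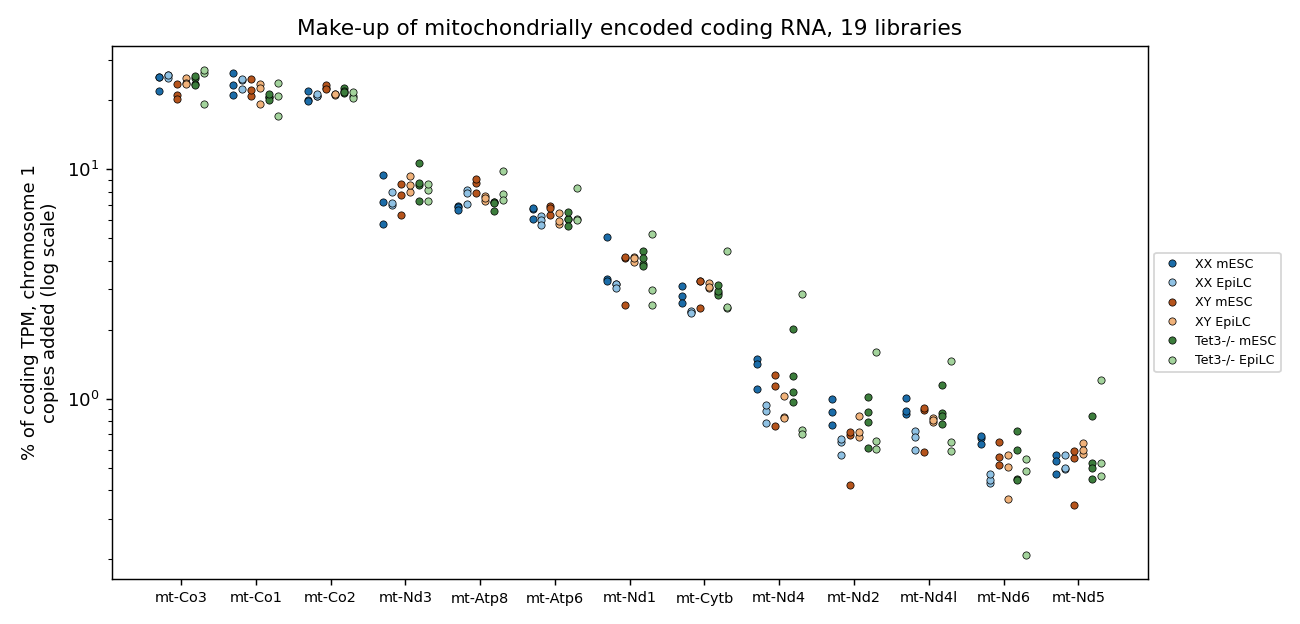
Each coding gene, with its chromosome 1 copy added where it has one, as a percentage of the coding TPM of its library (log axis), with 1 point per library coloured by group. The cytochrome c oxidase genes lie highest, with means from 21.5% to 24.0%, and a single Tet3-/- EpiLC library, mutant #3, lies highest in mt-Nd4 (2.86%), mt-Nd2 (1.59%) and mt-Nd5 (1.20%) and lowest in mt-Nd6 (0.210%).

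A pair of gene overlaps adds to the uncertainty. The end of mt-Atp8 (chrM:7766-7969, +) and the start of mt-Atp6 (chrM:7927-8607, +) share 43 bases, and the end of mt-Nd4l (chrM:9877-10173, +) and the start of mt-Nd4 (chrM:10167-11544, +) share 7. The shared bases are shown in capitals, from chrM:7917-7979 and chrM:10157-10183, because RNA of these bases matches both genes of an overlap. How the deposited values divide it is not known here.
mt-Atp8 to mt-Atp6: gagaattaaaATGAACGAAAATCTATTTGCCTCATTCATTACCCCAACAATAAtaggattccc
mt-Nd4l to mt-Nd4: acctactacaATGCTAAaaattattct

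The 22 tRNA genes (59 to 75 bases, 14 on the plus and 8 on the minus strand of chromosome M) were nearly empty. Of their 418 values, 407 were listed at 0 and 4 were at least 1 TPM. The summed level of all 22 ranged from 0 to 1.85 TPM per library. No value was above 0 for 14 of the tRNAs, and each of the other 8 had a value in 1 to 4 libraries. The highest value was 1.85 TPM, of mt-Tq (the glutamine tRNA, chrM:3772-3842, -) in XY EpiLC replicate 3. The leucine tRNA mt-Tl1 (chrM:2676-2750, +), which lies between mt-Rnr2 and mt-Nd1, had a value in the most libraries, in 4 of 19, at 0.660, 0.745 and 0.697 TPM and at slightly over 1 in XX EpiLC replicate 3. Both are shown whole as examples of how short these transcripts are. No tRNA passed the filter for testing, and no group can be compared with another at these levels.
mt-Tq: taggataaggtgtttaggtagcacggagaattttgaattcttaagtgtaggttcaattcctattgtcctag
mt-Tl1: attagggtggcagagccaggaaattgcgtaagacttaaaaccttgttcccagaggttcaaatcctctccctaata

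The summed coding RNA was highest in XY EpiLC on the TPM scale. Its share of TPM was 2.78%, 2.86% and 2.94% in XY EpiLC and 1.61%, 1.49% and 1.55% in XX EpiLC (replicates 1, 2 and 3). In mESC it was 2.31%, 2.06% and 2.83% in XY and 1.38%, 2.06% and 1.63% in XX. The Tet3-/- mESC held 2.50%, 2.10%, 2.07% and 2.64% (mutants #1 to #4), and the Tet3-/- EpiLC held 1.50%, 1.83% and 1.26% (mutants #1, #3 and #4). The ranges of XX and XY did not overlap in either state, nor did those of Tet3-/- mESC and Tet3-/- EpiLC. XX and Tet3-/- mESC did not overlap either. In mESC these gaps were narrow: XX replicate 2 lay at 2.0601%, XY replicate 2 at 2.0617% and Tet3-/- mutant #3 at 2.07%. With the chromosome 1 copies added, XX mESC (1.75% to 2.81%) and Tet3-/- mESC (2.69% to 3.58%) overlapped. The other separations named here remained. As group means, XY EpiLC stood at 2.86% ± 0.0780 (SD, n = 3), XY mESC at 2.40% ± 0.393 (SD, n = 3) and Tet3-/- mESC at 2.33% ± 0.286 (SD, n = 4), and these neighbours did not differ beyond their spread except for XY EpiLC against Tet3-/- mESC. The lowest means, each over 3 libraries, were 1.69% ± 0.342 in XX mESC, 1.55% ± 0.0617 in XX EpiLC and 1.53% ± 0.284 in Tet3-/- EpiLC (± SD), and their ranges overlapped.

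Set against nuclear protein-coding RNA the groups lay closer together. Coding mitochondrial RNA came to 5.78% ± 0.763 of the nuclear protein-coding sum in mESC of the XX line and to 5.22% ± 0.319 in its EpiLC (SD over 3 libraries each). In XY cells the values were 6.65% ± 0.161 in mESC and 6.26% ± 0.0310 in EpiLC (SD over 3 each). In Tet3-/- cells they were 6.97% ± 1.22 in mESC (SD over 4) and 4.89% ± 0.444 in EpiLC (SD over 3). The drop from mESC to EpiLC in Tet3-/- cells had no overlap on either scale, with a 1.52-fold difference in TPM share and a 1.42-fold difference against nuclear coding RNA. In the XY cells the direction turned with the scale. The share of TPM was 1.19-fold higher in EpiLC, with overlap, and the ratio to nuclear coding RNA was 1.06-fold lower, without overlap. With the chromosome 1 copies added that ratio did overlap, at 8.91% to 9.96% in XY mESC and 8.14% to 8.97% in XY EpiLC. These sums have no test, and the tests below were made gene by gene.

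**Figure D3:**
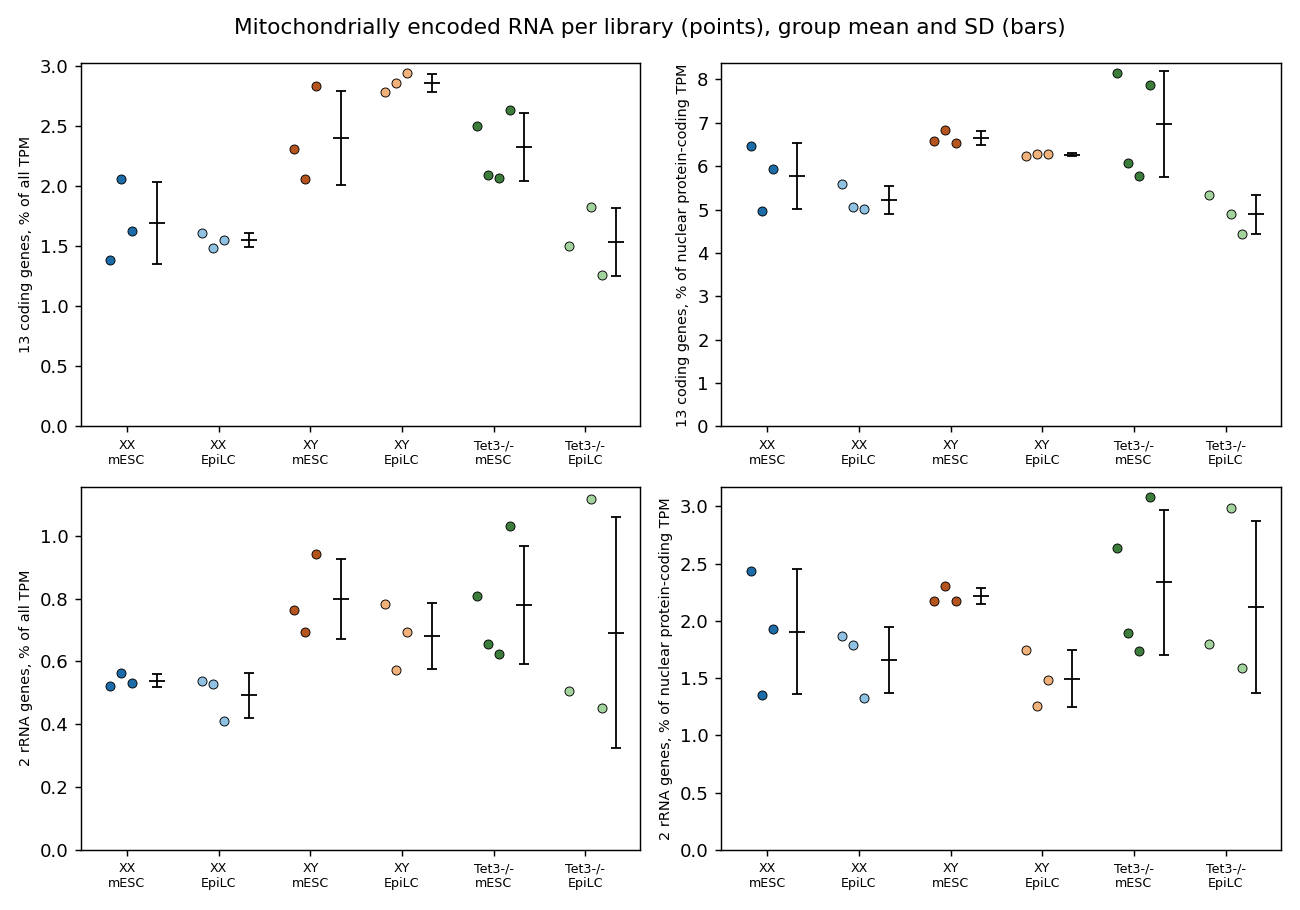
Summed coding genes (upper row) and rRNA genes (lower row) per library, as a percentage of all TPM (left) and of nuclear protein-coding TPM (right), for the 6 groups, with the group mean and SD as a bar beside the points. XY EpiLC lies highest for coding genes on the TPM scale (2.78% to 2.94%), and mutant #3 of Tet3-/- EpiLC lies highest for rRNA on that scale (1.12%).

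The comparison of XX with XY EpiLC had the most called mitochondrially encoded genes on the TPM scale, but not on the nuclear scale, where it had 3 against 5 in the Tet3-/- transition, nor with median-of-ratios scaling, where it had 2 against 4 in the XX transition. The share of all tested genes called was not worked out for median-of-ratios scaling or the other alternative fits. On the TPM scale 12 of the 13 coding genes were lower in XX than in XY EpiLC (limma, Benjamini-Hochberg adjusted p under 0.05 over 14972 tested genes), and mt-Nd4 had a log2 fold change of -0.93 without being called. In this comparison 47.2% of all tested genes were called, 6291 of them lower and 783 higher in XX, and the median over all of them was -0.58 on the log2 scale, against -1.11 for the 13 coding genes. mt-Nd1, a core membrane subunit of complex I (chrM:2751-3707, +), was at 682, 656 and 613 TPM in XX and 1551, 1456 and 1719 in XY EpiLC. Its log2 fold change was -1.27 (SE 0.36, adjusted p = 0.00941). mt-Cytb, the cytochrome b of complex III (chrM:14145-15288, +), was at 519, 498 and 474 TPM in XX and 1195, 1120 and 1288 in XY, with a log2 fold change of -1.27 (SE 0.30, adjusted p = 0.00351). In both genes every XX library lay below every XY library.

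mt-Nd3, a small complex I subunit (chrM:9459-9806, +), had 1625, 1353 and 1362 TPM in XX EpiLC and 3456, 2861 and 3448 in XY EpiLC. Its log2 fold change was -1.17 (SE 0.28, adjusted p = 0.00326). mt-Co2 (chrM:7013-7696, +) had 156, 128 and 149 TPM in XX and 366, 376 and 251 in XY, a log2 fold change of -1.17 (SE 0.24, adjusted p = 0.00114). With its copy Gm28661 the pair summed to between 4287 and 4524 TPM in XX and between 7771 and 8953 in XY, and the log2 fold change became -0.91 (adjusted p = 0.0014). mt-Nd4l, another membrane subunit of complex I, had 90.7, 45.1 and 37.8 TPM in XX and 75.3, 141 and 169 in XY, so the libraries overlapped although the gene was called (log2 fold change -1.16, SE 0.41, adjusted p = 0.0304). With Gm10222 added it was -1.17 (adjusted p = 0.0183). mt-Nd6, which lies on the other strand, fell from a mean of 186 ± 42.9 TPM (SD, n = 3) in XY to 92.8 ± 1.71 in XX (SD, n = 3), with a log2 fold change of -0.97 (SE 0.29, adjusted p = 0.0134). The other called genes were mt-Atp6, mt-Atp8, mt-Co1, mt-Co3, mt-Nd2 and mt-Nd5, with log2 fold changes from -1.13 to -0.73. With their copies added, mt-Atp6 was at -0.91 (adjusted p = 0.00822) and mt-Co3 at -0.82 (adjusted p = 0.000541). Of the 12 calls, between 8 and 10 were made when any single EpiLC library of these groups was left out, and those of mt-Nd2 and mt-Nd5 were lost each time.

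Much of this difference moved with the scale. On the nuclear protein-coding scale all 13 coding genes still had negative log2 fold changes, from -0.66 to -0.11, and 3 were called, mt-Cytb (-0.66, adjusted p = 0.0271), mt-Nd1 (-0.66, adjusted p = 0.0455) and mt-Nd3 (-0.55, adjusted p = 0.0259). Called genes were 26.9% of all tested genes there, 2165 of them lower and 1864 higher in XX. Median-of-ratios scaling called 2 on the TPM values, mt-Cytb and mt-Nd1, both at -0.55. Polymerase III RNAs held 52.2% ± 0.0712 of TPM in XX EpiLC and 35.9% ± 2.39 in XY EpiLC (SD, n = 3 each). With them taken out of the denominator, the log2 ratio of the coding shares went from -0.88 to -0.46. The 3 calls on the nuclear scale fell to between 0 and 2 when single EpiLC libraries of these groups were left out, and to 0 without XX replicate 2, XX replicate 3, XY replicate 1 or XY replicate 3. Formative markers differed between the same groups, as did the summed primitive endoderm markers (6 genes), at 6.10 to 6.72 TPM in XY and 1.01 to 1.08 in XX EpiLC, and the feeder markers given above. Of the 15 naive markers, 10 were called higher and 2 lower in XX EpiLC in TPM, with a median log2 fold change of 1.21. Of all tested genes 783 were higher and 6291 lower there. The summed naive markers ran the other way, at 340 to 375 TPM in XX and 491 to 505 in XY EpiLC. The part of these markers in the result was not tested.

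In mESC, fewer of these genes were called between XX and XY cells. On the TPM scale mt-Atp8 and mt-Co1 were lower in XX than in XY mESC, the other 11 coding genes had negative log2 fold changes without a call, and 14.2% of all tested genes were called. The median log2 fold change was -0.53 over the 13 coding genes and -0.19 over all tested genes. mt-Atp8, a small membrane subunit of ATP synthase, had 1212, 1929 and 1378 TPM in XX and 2716, 2373 and 3791 in XY, with a log2 fold change of -0.97 (SE 0.24, adjusted p = 0.0102). mt-Co1, the catalytic subunit of cytochrome c oxidase (chrM:5328-6872, +), had 3904, 5883 and 5333 TPM in XX and 6503, 7344 and 9216 in XY, with a log2 fold change of -0.61 (SE 0.19, adjusted p = 0.0361). Neither gene's groups overlapped. On the nuclear protein-coding scale mt-Atp8 alone was called (log2 fold change -0.67, adjusted p = 0.0121), against 23.9% of all tested genes, and 9 of 13 coding genes had negative values. When copies were added to their genes, mt-Co2 and mt-Co3 were called too on the TPM scale, at -0.80 and -0.49. Without XX replicate 2, 5 coding genes were called, mt-Atp8, mt-Co1, mt-Co2, mt-Cytb and mt-Nd3, and without XX replicate 1 or XY replicate 3 none was.

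The step from mESC to EpiLC left most mitochondrially encoded genes uncalled in wild-type cells. In XX cells 12 of 13 coding genes had negative log2 fold changes on the TPM scale, and mt-Nd4l was called, against 31.3% of all tested genes. It had 175, 186 and 69.6 TPM in mESC and 90.7, 45.1 and 37.8 in EpiLC, which overlap, and its log2 fold change was -1.28 (SE 0.41, adjusted p = 0.0245). On the nuclear scale it was -1.32 (adjusted p = 0.0161), against 43.8% of all tested genes. The sum of mt-Nd4l and Gm10222 gave -0.51 (adjusted p = 0.341) in TPM and -0.55 (adjusted p = 0.159) on the nuclear scale, and was called on neither. In TPM the mt-Nd4l call was also lost without XX mESC replicate 1 or 2 or XX EpiLC replicate 2 or 3. With no filter on low genes, or in a fit of only the groups compared, it was lost too. mt-Nd6 went from 118, 193 and 132 TPM in mESC to 92.6, 91.2 and 94.6 in EpiLC, with no overlap, and was not called (log2 fold change -0.63, SE 0.29, adjusted p = 0.112).

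In XY cells mt-Co3, a core subunit of cytochrome c oxidase (chrM:8607-9390, +), was the single coding gene called on the TPM scale. It rose from 5757, 5553 and 6250 TPM in mESC to 7778, 8247 and 7253 in EpiLC, a log2 fold change of 0.41 (SE 0.14, adjusted p = 0.0223), with no overlap. Of all tested genes 50.5% were called there, and their median log2 fold change was 0.54. With Gm28437 added the value was 0.35 (adjusted p = 0.0656), and with median-of-ratios scaling it was -0.20 (adjusted p = 0.637). On the nuclear protein-coding scale 0 of 13 coding genes were called by limma (1 at an unadjusted p under 0.05), against 49.4% of all tested genes. The call of mt-Co3 was lost without XY EpiLC replicate 2, XY mESC replicate 1 or XY mESC replicate 2.

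Of the 3 transitions, that of Tet3-/- cells had the most falls on the TPM and nuclear scales. With median-of-ratios scaling it had 1, against 4 in XX and 2 in XY cells, and no share of all tested genes is known beside these counts. All 13 coding genes had negative log2 fold changes on both scales, and 6 were called on the TPM scale and 5 on the nuclear scale. Of all 14972 tested genes, 3223 were called lower in TPM and 3855 on the nuclear scale, with 35.1% and 45.7% called in either direction. The median over the 13 was -0.70 on the TPM scale, beside -0.13 for all tested genes. mt-Nd6, the complex I subunit of the other strand (chrM:13552-14070, -), had 231, 166, 120 and 158 TPM in mESC and 102, 52.4 and 93.7 in EpiLC. Its log2 fold change was -1.04 (SE 0.27, adjusted p = 0.00562), and the groups did not overlap. mt-Atp6, the membrane channel subunit of ATP synthase, had 1955, 1656, 1503 and 1891 TPM in mESC and 831, 1186 and 929 in EpiLC, with a log2 fold change of -0.84 (SE 0.20, adjusted p = 0.00266). With Gm10925 added it was -0.40 (adjusted p = 0.2) and was not called. mt-Co3 had 7858, 6347, 6025 and 7211 TPM in mESC and 4468, 4222 and 3863 in EpiLC, with a log2 fold change of -0.71 (SE 0.13, adjusted p = 0.000283), and with Gm28437 the value was -0.58 (adjusted p = 0.0037).

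mt-Nd3 fell from 2640, 2392, 2797 and 2402 TPM in Tet3-/- mESC to 1317, 2004 and 1446 in Tet3-/- EpiLC (log2 fold change -0.71, SE 0.26, adjusted p = 0.0406). mt-Co2 went from 277, 209, 211 and 373 TPM to 159, 164 and 192, a log2 fold change of -0.60 (SE 0.22, adjusted p = 0.0457), and the sum with Gm28661 gave -0.61 (adjusted p = 0.0124). In both genes the groups did not overlap. The mt-Nd3 call was kept without EpiLC mutant #3 and lost without any other single library of these groups, and the mt-Co2 call was lost without any EpiLC library and without mESC mutant #1 or #4. mt-Co1 was called at -0.57 on the TPM scale. On the nuclear scale the called genes were mt-Nd6 (-0.93), mt-Atp6 (-0.73), mt-Nd1 (-0.68), mt-Co3 and mt-Nd3 (-0.60 each). With their copies added, mt-Atp6 was at -0.29 (adjusted p = 0.188) and mt-Co3 at -0.46 (adjusted p = 0.046) on that scale. The call left with median-of-ratios scaling was mt-Nd1 at -0.58.

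Mutant #3 lay apart from the other Tet3-/- EpiLC libraries in several of these genes. It had 717 TPM of mt-Nd4 against 155 and 120 in mutants #1 and #4, 398 of mt-Nd2 against 128 and 111, and 301 of mt-Nd5 against 111 and 78.7. For mt-Nd6 it was the lowest, at 52.4 TPM against 102 and 93.7. Without it, 11 coding genes and both rRNA genes were called lower in Tet3-/- EpiLC than in Tet3-/- mESC on the TPM scale. The share of all tested genes called without that library was not worked out, so the higher count cannot be set beside it. mt-Nd4 then had a log2 fold change of -1.50, mt-Nd1 of -1.23, mt-Nd2 of -1.04, mt-Rnr1 of -0.94 and mt-Rnr2 of -0.64. mt-Co2 and mt-Nd4l were not called in that fit. Without EpiLC mutant #4, or without mESC mutant #4, 3 coding genes were called, mt-Atp6, mt-Co3 and mt-Nd6. Mutant #4 in mESC was itself high in mt-Nd4, at 724 TPM against 270 to 402, and in mt-Nd5, at 300 TPM against 125 to 168. The formative and primitive endoderm markers were also high in EpiLC mutant #3. In mESC mutant #4 the summed formative markers were at 37.6 TPM against 30.65 to 36.05 in the other mESC mutants. Its summed primitive endoderm markers were at 2.33 TPM against 0.579 to 2.14. The part of these markers was not tested.

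**Figure D4:**
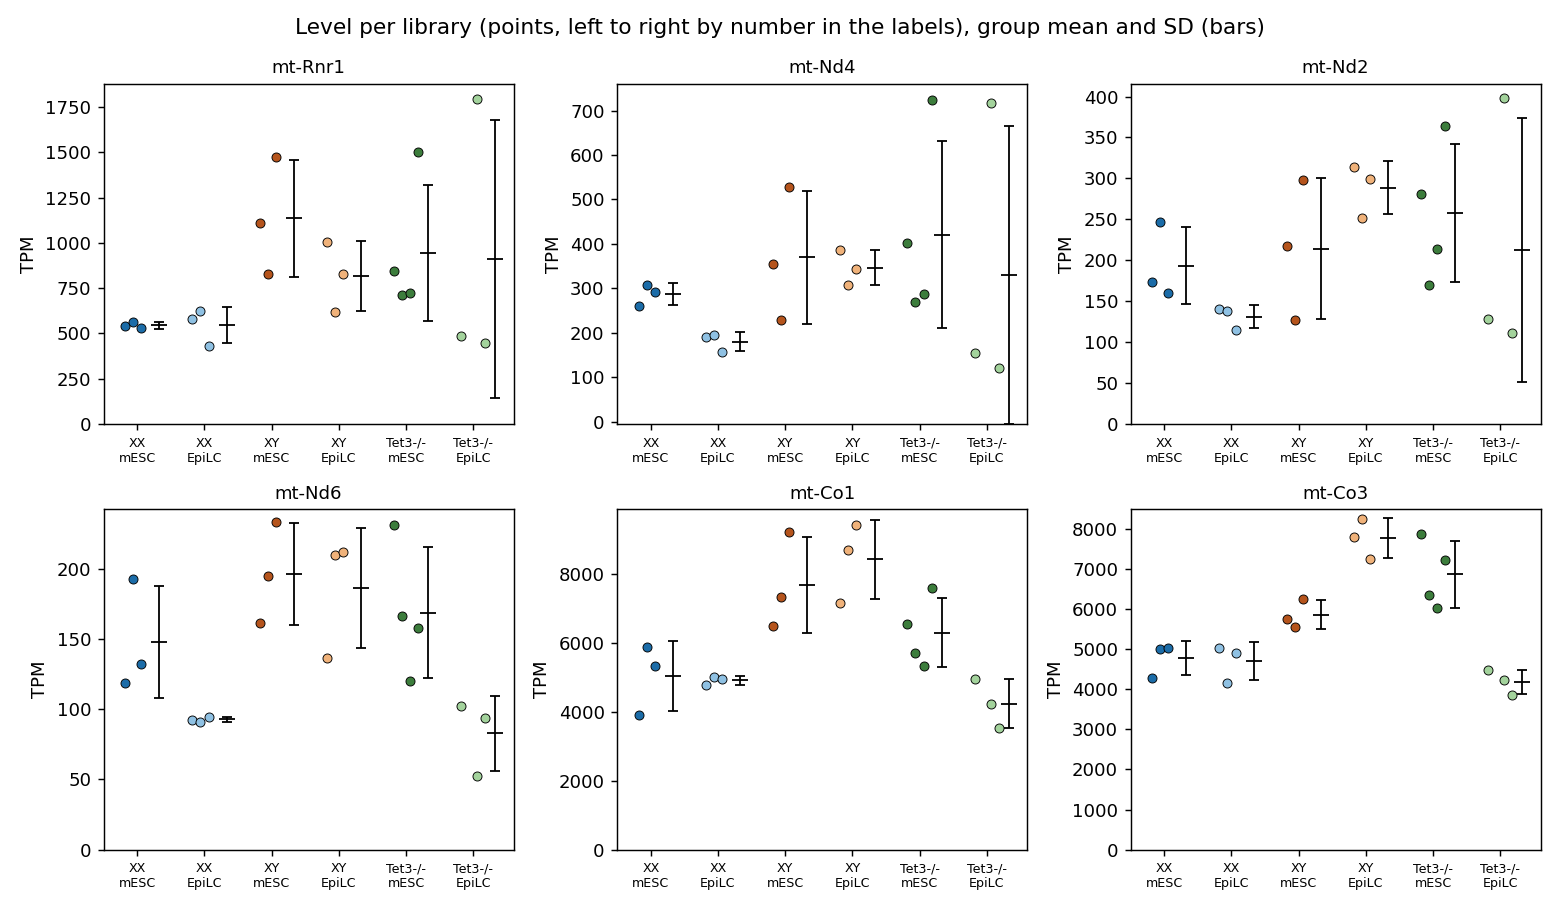
TPM of 6 mitochondrially encoded genes in each library, placed left to right by the number in the labels, with the group mean and SD as a bar. Tet3-/- EpiLC mutant #3 is far above mutants #1 and #4 in mt-Rnr1 (1796 TPM), mt-Nd4 (717) and mt-Nd2 (398) and below them in mt-Nd6 (52.4), while mt-Co1 and mt-Co3 of the same library lie between the other mutants.

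Tet3-/- and XX cells of the same state were not separated by the test. In mESC all 13 coding genes had positive log2 fold changes on the TPM scale, from 0.18 to 0.75, and limma called 0, with 3 at an unadjusted p under 0.05 (mt-Nd3, mt-Atp8 and mt-Co3). The median over the 13 was 0.44, beside 0.19 for all tested genes. All tested genes gave 0.601% called in that comparison. The values of mt-Co3, at 4287, 5009 and 5029 TPM in XX and 6025 to 7858 in Tet3-/- mESC, did not overlap (log2 fold change 0.52, SE 0.13, adjusted p = 0.0954). With Gm28437 added the log2 fold change was 0.51 (adjusted p = 0.144). mt-Nd3 had 1195, 2554 and 1142 TPM in XX, of which replicate 2 lay within the Tet3-/- range of 2392 to 2797 (log2 fold change 0.75, SE 0.26, adjusted p = 0.277). Without XX mESC replicate 2 both were called, mt-Nd3 at 1.13 (adjusted p = 0.016) and mt-Co3 at 0.56 (adjusted p = 0.0369). On the nuclear scale 0 coding genes were called, with 1 at an unadjusted p under 0.05, against 1.04% of all tested genes, and mt-Nd3 alone was called without XX replicate 2. In EpiLC limma called 0 of 13 on either scale, with 0 at an unadjusted p under 0.05, against 1.08% of all tested genes in TPM and 4.37% on the nuclear scale. Those log2 fold changes lay between -0.23 and 0.71 in TPM. With groups of 3 and 4 libraries a missing call does not show that the levels were alike.

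The difference between transitions was tested as well. Tet3-/- and XX cells share no libraries, but their transitions were compared in the same fit. The fall in Tet3-/- cells was not shown to differ from the change in XX cells for any coding gene (0 of 13 called by limma on either scale, 2 at an unadjusted p under 0.05 in TPM and 0 on the nuclear scale), while 0.174% of all tested genes were called in TPM and 0.594% on the nuclear scale. Of the coding genes 11 of 13 had negative differences in TPM, with a median of -0.39 beside -0.28 for all tested genes. mt-Co3 had the smallest p, with a difference of -0.68 (SE 0.19, adjusted p = 0.237), and with Gm28437 added it was -0.60 (adjusted p = 0.426). Between the XX and XY transitions mt-Atp6 was called in TPM, with a difference of -0.95 (SE 0.30, adjusted p = 0.0383), against 16.0% of all tested genes. It went from 1170, 1596 and 1227 TPM in XX mESC to 940, 853 and 1111 in XX EpiLC, and from 1737, 1174 and 1146 in XY mESC to 2246, 1912 and 1543 in XY EpiLC. The pair sum with Gm10925 gave -0.23 (adjusted p = 0.697). In XY mESC the mt-Atp6 row held 80.2%, 62.0% and 40.6% of that sum, against 93.2%, 89.5% and 62.0% in XY EpiLC. On the nuclear scale 0 coding genes were called in this difference by limma (0 at an unadjusted p under 0.05), against 16.7% of all tested genes.

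**Figure D5:**
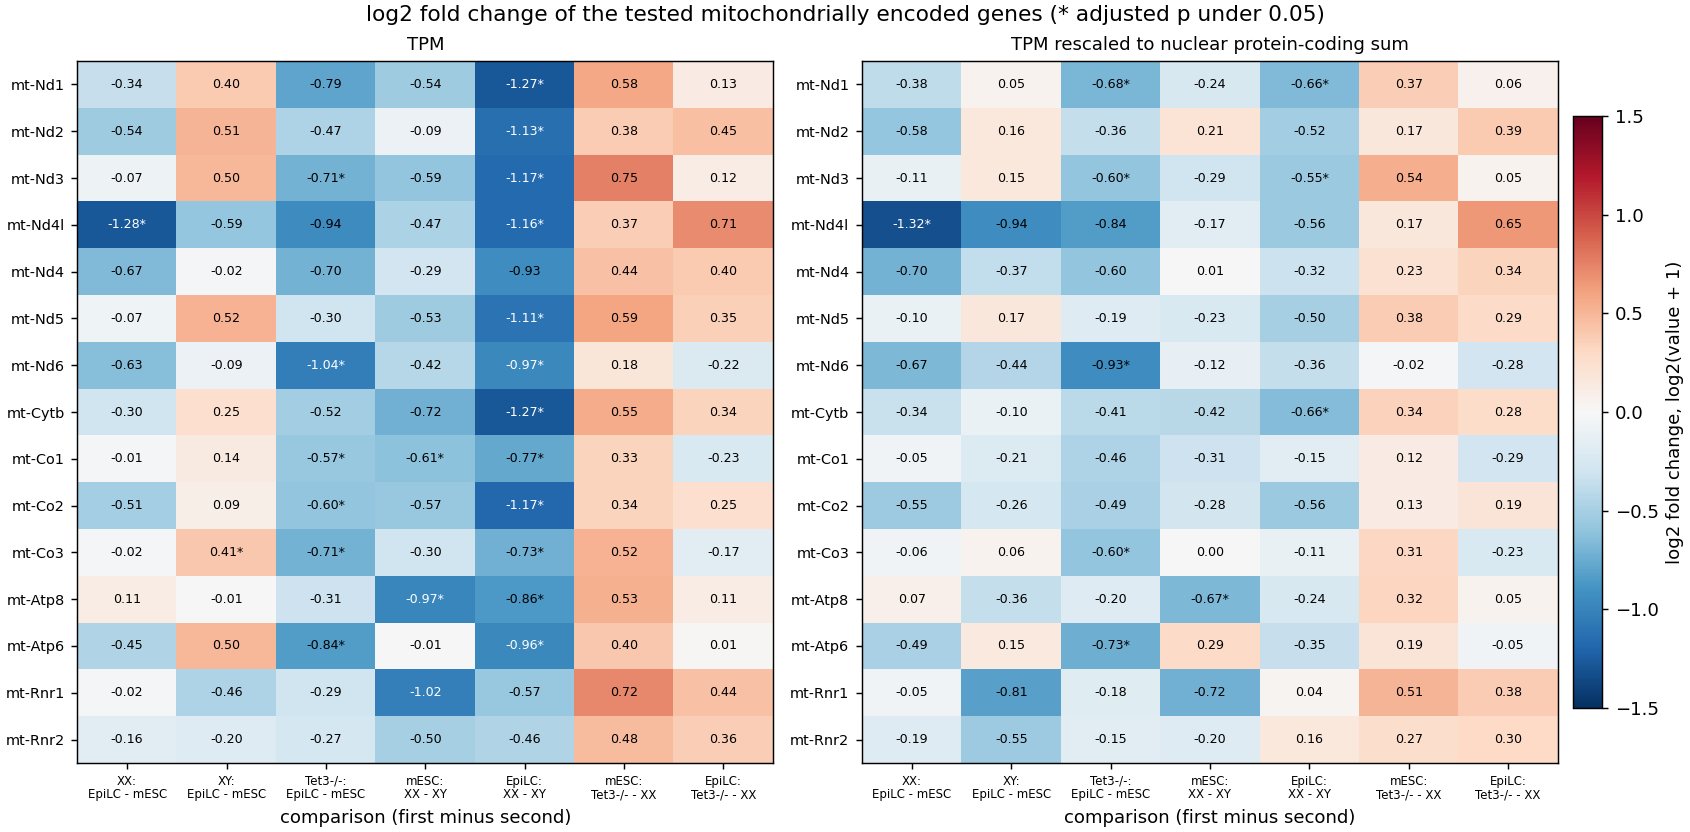
log2 fold changes of the 13 coding and 2 rRNA genes (rows) in 7 comparisons of groups (columns), on the TPM scale (left) and the nuclear protein-coding scale (right), with blue for lower and red for higher in the first-named group and an asterisk for an adjusted p under 0.05. The column of XX against XY EpiLC has 12 asterisks on the TPM scale and 3 on the nuclear scale, and the Tet3-/- transition has 6 and 5.

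The rRNA genes encode the RNAs of the small (mt-Rnr1, chrM:70-1024, +) and large (mt-Rnr2, chrM:1094-2675, +) subunit of the mitochondrial ribosome. Neither was called in any of the 9 comparisons on either scale, and the smallest adjusted p on the TPM scale was that of mt-Rnr1 in XX against XY mESC. It had 542, 563 and 528 TPM in XX mESC and 1108, 826 and 1473 in XY mESC, with no overlap and a log2 fold change of -1.02 (SE 0.41, adjusted p = 0.109). In XX EpiLC it had 578, 622 and 433 TPM and in XY EpiLC 1003, 620 and 827, which overlap. Tet3-/- mESC had 843, 712, 725 and 1499 TPM (mutants #1 to #4) and Tet3-/- EpiLC had 488, 1796 and 448 (mutants #1, #3 and #4), so 1 library in each state was high. mt-Rnr2 was highest in the same mutants, with 8815 TPM in mESC mutant #4 against 5501 to 7234, and 9359 in EpiLC mutant #3 against 4569 and 4078. In XY cells the rRNA sum against nuclear coding RNA was 2.22% ± 0.0722 in mESC and 1.50% ± 0.246 in EpiLC (SD, n = 3 each), with no overlap. On that scale mt-Rnr1 had a log2 fold change of -0.81 (adjusted p = 0.0854) and mt-Rnr2 of -0.55 (adjusted p = 0.0958).

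The ratio of rRNA to coding TPM varied little in XY mESC, from 0.331 to 0.337, and was 0.200 to 0.281 in XY EpiLC. It ranged from 0.264 to 0.392 over the XX libraries and the other Tet3-/- libraries, and was 0.611 in Tet3-/- EpiLC mutant #3. Between 5.21 and 9.36 TPM of mt-Rnr2 were listed per TPM of mt-Rnr1, with the lowest ratios in Tet3-/- EpiLC mutant #3 (5.21), XY mESC replicate 3 (5.39), Tet3-/- mESC mutant #4 (5.88) and XY mESC replicate 1 (5.89). The XX mESC lay at 8.64, 8.97 and 9.05. Since rRNA was depleted before sequencing, these ratios describe the RNA that remained.

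Of the coding genes, mt-Nd6 alone lies on the minus strand of chromosome M, the other 12 on the plus strand. As a percentage of the summed plus-strand coding TPM, mt-Nd6 came to 0.864%, 0.945% and 0.816% in XX mESC and 0.578%, 0.616% and 0.614% in XX EpiLC, with no overlap. XY mESC had 0.703%, 0.953% and 0.831%, and XY EpiLC 0.494%, 0.741% and 0.728%. In Tet3-/- cells it was 0.934%, 0.799%, 0.583% and 0.603% in mESC and 0.685%, 0.288% and 0.747% in EpiLC. The ranges of mESC and EpiLC overlapped in XY and in Tet3-/- cells.

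Nuclear genes that serve mitochondrial DNA and RNA were counted from lists chosen by function. Of all tested genes 47.2% were called between XX and XY EpiLC in TPM (6291 of 14972 lower) and 26.9% on the nuclear scale (2165 lower). Of 11 genes of mitochondrial transcription, 7 were lower in XX than in XY EpiLC on the TPM scale and 3 on the nuclear scale. Tfam, which packages mitochondrial DNA and starts its transcription, had a mean of 16.4 TPM in XX and 35.5 in XY (log2 fold change -1.06, limma adjusted p = 0.023), but -0.48 on the nuclear scale (adjusted p = 0.123). Mterf3, of the mitochondrial terminator family, was at -1.01 (adjusted p = 0.00622) in TPM and -0.45 (adjusted p = 0.0325) on the nuclear scale. The other two called on that scale were Mterf1a (-0.49, adjusted p = 0.0101) and its near relative Mterf1b (-0.59, adjusted p = 0.0243). All 11 had a median log2 fold change of -0.89 in TPM and -0.37 on the nuclear scale, beside -0.58 and -0.11 for all tested genes.

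Of 26 tested genes of mitochondrial RNA processing and stability, 19 were lower and none higher in XX than in XY EpiLC in TPM, and on the nuclear scale 10 were lower and 1 higher. The shares of all tested genes called were 47.2% and 26.9%. Lrpprc, which stabilises mitochondrial mRNAs, had a mean of 14.2 TPM in XX and 51.7 in XY EpiLC, with a log2 fold change of -1.78 in TPM (adjusted p = 0.00188) and -1.22 on the nuclear scale (adjusted p = 0.00227). Fastkd1, of a family of mitochondrial RNA-binding proteins, was at -1.36 (adjusted p = 0.000803) in TPM and -0.94 on the nuclear scale (adjusted p = 0.00464). Trmt5, a tRNA methyltransferase, was at -1.36 in TPM (adjusted p = 0.000968) and -0.82 on the nuclear scale (adjusted p = 0.000963). Grsf1, an RNA-binding protein of mitochondrial RNA granules, stood out in XY cells. It fell from a mean of 208 TPM in XY mESC to 30.0 in XY EpiLC, a log2 fold change of -2.74 (adjusted p = 1.6e-05), and was lower in XX than in XY mESC, where XX mESC had a mean of 34.0 TPM (log2 fold change -2.85, adjusted p = 7.2e-05).

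Among 13 genes of mitochondrial DNA replication and maintenance, Polg, the catalytic subunit of the mitochondrial DNA polymerase, rose from mESC to EpiLC in each genotype. Its mean went from 21.7 to 67.1 TPM in XX cells (log2 fold change 1.60, adjusted p = 0.000138), from 22.1 to 93.4 in XY cells (2.08, adjusted p = 4e-06) and from 23.0 to 52.0 in Tet3-/- cells (1.12, adjusted p = 0.00168). In XY cells 7 of the 13 rose and none fell on both scales. Of all 14972 tested genes, 6159 rose in TPM and 5172 on the nuclear scale, smaller shares than 7 of 13, and the difference was not tested. Called in either direction were 50.5% in TPM and 49.4% on the nuclear scale. Primpol, a primase-polymerase, rose by 1.37 on the log2 scale in TPM (adjusted p = 4.2e-05), and Dguok, a kinase for mitochondrial nucleotides, by 1.12 (adjusted p = 0.000601). Among 8 tested regulators of mitochondrial biogenesis, 4 rose in XY cells in TPM and none fell, beside 6159 of 14972 tested genes that rose. Ppargc1b, a transcriptional coactivator, went from a mean of 1.27 to 5.96 TPM in XY cells (log2 fold change 1.68, adjusted p = 4e-06) and was lower in XX than in XY EpiLC (-1.80, adjusted p = 7e-06, and -1.70 on the nuclear scale, adjusted p = 0.000116).

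Nuclear genes for subunits of the respiratory chain complexes and ATP synthase were in the table for 83 of 86 listed, and 81 were tested. In XX against XY EpiLC 35 of 81 were lower and none higher in TPM, while on the nuclear scale 4 were lower and 11 higher. All tested genes gave 6291 of 14972 lower in TPM, a share near that of the subunits, with 47.2% called in TPM and 26.9% on the nuclear scale. In the Tet3-/- transition 21 fell and none rose in TPM, and 36 fell and 1 rose on the nuclear scale, with medians of -0.40 and -0.29 beside -0.13 and -0.06 for all tested genes. Of all 14972 tested genes, 3223 fell in TPM and 3855 on the nuclear scale in that transition, with 35.1% and 45.7% called in either direction. Falls were thus a larger share of the subunits than of all tested genes on both scales, a difference that was not tested. Complex IV had the largest share lower there in TPM, with 7 of 14, among them Cox7a1 (-1.58, adjusted p = 2.6e-05), Cox5a (-1.02, adjusted p = 0.0246) and Cox7b (-0.98, adjusted p = 0.0156). The other listed complexes with calls were complex I (10 of 37), complex III (2 of 9) and ATP synthase (2 of 17). In complex III, Uqcrb (-1.16, adjusted p = 0.000146) and Uqcr10 (-1.20, adjusted p = 0.0035) fell, and in complex I, Ndufb4 (-1.24, adjusted p = 3.5e-05) and Ndufa3 (-1.05, adjusted p = 0.000994). In XX cells 3 of 81 fell and none rose in TPM, and in XY cells 4 fell and 7 rose. Of all tested genes 31.3% were called in the XX transition (1821 lower, 2868 higher) and 50.5% in the XY transition (1402 lower, 6159 higher). No nuclear subunit was called in Tet3-/- against XX EpiLC in TPM, and in mESC 1 was higher, against 1.08% and 0.601% of all tested genes. Of 78 mitochondrial ribosomal proteins, 43 were lower in XX than in XY EpiLC in TPM and 11 fell in the Tet3-/- transition, and on the nuclear scale 4 were lower and 7 higher in the first comparison. The 11 are a smaller share than the 3223 of 14972 tested genes that fell in that transition in TPM. In a bulk library, fewer cells with a transcript and less of it per cell cannot be told apart.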

How the data were processed

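RNA was sequenced from 19 mouse libraries in 6 groups. The authors deposited their TPM values as 1 table with 140948 transcripts, whose columns each summed to 1000000. The submitters' processing notes name Salmon 1.1.0, Trimmomatic 0.35, FastQC 0.11.7 and the build GRCm38, with no settings, and the annotation release is not given in the sources used here. Libraries were made from 200 ng of RNA with a RIN of at least 9 by a stranded, rRNA-depleted protocol, per the labels' protocols. TPM keeps no depth.

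Transcripts were summed per gene with GENCODE M21. Of them 139357 matched with their version, 495 without it and 1096 not at all (at most 0.215% of TPM). The test took genes that reached 1 TPM in 3 or more libraries (14972 genes, 15 of the 37 mitochondrially encoded ones). On log2(value + 1), 1 limma model over all 19 libraries was fitted with limma 3.58.1 and R 4.3.3 (eBayes with a trend), with 9 contrasts and Benjamini-Hochberg adjustment within each, on 2 scales. The pseudocount makes fold changes of low genes too small. The fit was tested on simulated data. Nuclear copies were found with blastn 2.17.0 among annotated transcripts at 90% identity or more, and tables were made with Python 3.11.15 and pandas 2.3.3.

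The genes with full statistics are, per contrast, at most the 5 called members with the largest log2 fold change, with mt-Nd6, mt-Rnr1 and mt-Rnr2, and of each other list at most 4 called genes with the largest change and a mean of at least 5 TPM in the higher group. Genes outside that rule, such as those called in a single alternative, were named after their values were seen. The members and lists were chosen with earlier results of these data known. Replicate numbers were not taken as pairs, and blocked fits are in the closing section. Alternatives were other pseudocounts, filters, scalings and thresholds, fits of only the groups compared, a replicate block, copies added to their genes and each library left out. The set of 7 copies was chosen after seeing the data, by sequence.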

Additional observations from a re-analysis of the deposited data

Results flagged for a closer look

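In Tet3-/- mESC, the group with 4 libraries, mt-Rnr1 had 1499 TPM in mutant #4, and its gap to the next library was large for the range of the group (843, 712 and 725 TPM in the others). Of 23 quantities examined in that group, this was the 1 found, and chance alone gives about 1 in 20. Groups of 3 libraries were not examined in this way.

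mt-Atp6 changed differently from mESC to EpiLC in XX and in XY cells, with a difference of -0.95 (log2 scale, TPM, limma adjusted p = 0.0383). With its identical copy Gm10925 added, the difference was -0.23 (adjusted p = 0.697).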

How the results depend on the processing

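Counts below are coding genes called on the TPM scale unless named otherwise. The share of all tested genes called was not worked out for these alternatives. Where a value changed, the cause was not tested. Median-of-ratios scaling gave 2 calls in XX against XY EpiLC, 1 in XX against XY mESC, 1 in the Tet3-/- transition, 4 in the XX transition, 2 (both lower) in the XY transition together with 2 rRNA genes, and 0 in the difference of transitions (XX minus XY). It also turned mt-Co3 in the XY transition from 0.41 to -0.20 (adjusted p = 0.637). With chromosome 1 copies added, XX against XY mESC had 4 calls and the XX transition, the XY transition and their difference 0 each. On the nuclear protein-coding scale that setting gave 2 calls in XX against XY mESC and 0 in the XX transition, and the log2 ratio of the coding sum to nuclear coding RNA in the XY transition went from -0.09 to -0.16. Without polymerase III RNAs in the denominator, the log2 ratio of XX to XY EpiLC was -0.46 for the coding share and -0.053 for the rRNA share. Requiring a log2 fold change of at least 1 in size left 7 calls in XX against XY EpiLC, 1 in the Tet3-/- transition, and 0 in XX against XY mESC, in the XY transition and in the difference of transitions, and on the nuclear scale 0 in both XX against XY comparisons and 0 in the Tet3-/- transition. With no filter on low genes there was 1 call in XX against XY mESC, 0 in the XX transition and 0 in the difference of transitions, and 1 on the nuclear scale in XX against XY EpiLC. Fits of only the groups compared gave 0 calls in XX against XY mESC, in the XX transition and in the difference of transitions, and 2 rRNA calls in XX against XY EpiLC. On the nuclear scale such fits gave 6 calls in XX against XY EpiLC, 0 in mESC, 3 in the Tet3-/- transition, 4 in the XX transition and 2 rRNA calls in the XY transition.

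Same-numbered samples deviated together in 4 of 9 pairs only (correlation over 0.1, range -0.05 to 0.30), so the numbers were not taken as pairs. The highest values were those of Tet3-/- mutants #3 (0.303) and #1 (0.271), while mutant #4 had -0.02. Whether mutant numbers pair the samples of the Tet3-/- transition is therefore not settled. A replicate block gave 0 calls in the difference of transitions and 2 on the nuclear scale in the XX transition, and the calls of mt-Nd3 in the Tet3-/- transition and of mt-Atp6 in the difference of transitions were lost.

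Leaving out 1 library at a time gave 3 to 11 calls in the Tet3-/- transition (rRNA 0 to 2), 0 to 1 in the XX transition on both scales, 0 to 2 in the XY transition, 0 to 5 in XX against XY mESC, 8 to 10 in XX against XY EpiLC, 0 to 2 in Tet3-/- against XX mESC (0 to 1 on the nuclear scale), 0 to 1 in the difference of transitions, and on the nuclear scale 0 to 2 in XX against XY EpiLC. Over 2115 comparisons of the 135 single-gene fold changes with an alternative, 1980 kept direction and call, 104 lost a call, 30 gained one and 1 reversed. A pseudocount of 0.1 changed none of the 135. Depth is unknown, so no counting error can be given for low values such as the tRNAs.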
